A study of Homo sapiens with 6 samples.

Results

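The genes described here are 31 direct transcriptional targets of p53, taken by symbol from a list of known targets and followed through the 3 groups of a light-activation experiment in HEK293T cells. They were chosen with earlier results of these data known, so their shares beside those of all features are descriptive. All 31 matched 1 row each among the 60179 gene features of the deposited table, and 30 passed the filter on low counts. The death receptor gene TNFRSF10A was the exception, with 0 to 3.01 estimated counts a library, which is at the limit that a count of 0 allows, so it has no fold change. HEK293T is a human line of embryonic kidney origin with the large T antigen of SV40. Cells of all groups held the plasmids pShP2419 and pStH1169, used for a human TET2 dioxygenase blocked by a photocaged serine. For 48 h all of them grew with that amino acid, 4,5-dimethoxy-2-nitrobenzyl-L-serine, at 0.1 mM. The caged 0 h group received no light, and the uncaged 4 h and uncaged 8 h groups were taken 4 h and 8 h after 3 min on a 365 nm transilluminator. Each group has 2 libraries, made from the messenger RNA of 500000 sorted transfected cells.

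The design has limits that bear on every value below. No group was lit without the enzyme or kept for 4 h or 8 h without light, so light, further culture time and the uncaged enzyme cannot be told apart. The labels do not say whether replicates were separate cultures. The p-values therefore reflect library-to-library spread, possibly a technical one. Libraries held 14903812 to 17670499 estimated counts on gene features, and replicate libraries were further apart than counting noise alone would place them. The 8 genes listed as transcribed in HEK293T were all detected, with a summed level of 1440 to 1530 CPM over the 6 libraries. The 9 markers of other cell types summed to 4.76 to 6.27 CPM, and CD3E, CDH5 and INS were at 0 in every library. In bulk RNA, fewer cells with a transcript and less transcript per cell cannot be told apart.

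The transcription factor p53 is held at low levels by the ubiquitin ligase MDM2 and is stabilised when DNA is damaged or growth is stressed. It then binds paired decamers in DNA and raises genes that halt the cell cycle, start apoptosis, repair DNA and adjust metabolism, MDM2 itself among them. In cells with SV40 large T, the viral protein binds the DNA-binding surface of p53, so that p53 accumulates while its activation of targets is hampered. The level of large T and the activity of p53 were not measured here.

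Of the 30 tested p53 targets, 24 were higher 8 h after light than in caged cells, by moderate amounts, and 14 already at 4 h. Levels are normalised counts scaled to library size (CPM), and fold changes are log2 fold changes ± SE from edgeR's quasi-likelihood test over all features, called at a Benjamini-Hochberg adjusted p under 0.05. At 4 h, 14 of the 30 tested genes were called higher than in caged cells and 0 lower, against 6.16% higher and 3.56% lower among all 17449 tested features. At an unadjusted p under 0.05 the counts at 4 h were 18 higher and 0 lower, beside 2531 and 2147 of all 17449 tested features. DESeq2 called 13 higher and 0 lower at 4 h, beside 876 and 260 of all 60179 gene features without the filter. That base, here and below, is wider than the 17449 features edgeR tested, so shares by DESeq2 and by edgeR are not comparable. At 8 h, 24 of the 30 were called higher and 0 lower, against 14.9% and 13.2% of all features. At an unadjusted p under 0.05 they were 26 higher and 1 lower, beside 3622 and 3544 of all tested features. DESeq2 called 23 higher and 0 lower at 8 h, beside 1944 and 1110 of all gene features without the filter. The median log2 fold change of the 30 was 0.22 at 4 h and 0.40 at 8 h, beside -0.0061 and -0.0046 over all features. It was above 0 for 25 genes at 4 h and for 29 at 8 h, where 49.1% and 49.6% of all features were above 0. Both comparisons use the same caged libraries.

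In level, 23 of the 30 genes had both 4 h libraries above both caged libraries and 0 had both below, where 28.5% of all features were above and 28.4% below. At 8 h, 28 of the 30 had both libraries above both caged libraries and 1, APAF1, had both below, beside 32.6% and 33.6% of all features. The log2 fold changes at 8 h spanned -0.17 to 0.84. The 14 genes called at 4 h were all called at 8 h as well, another 10 were called at 8 h alone, and 6 at neither time. The plot of levels by library shows the caged points around 0 and most 8 h points to the right of the 4 h points.

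**Figure D1:**
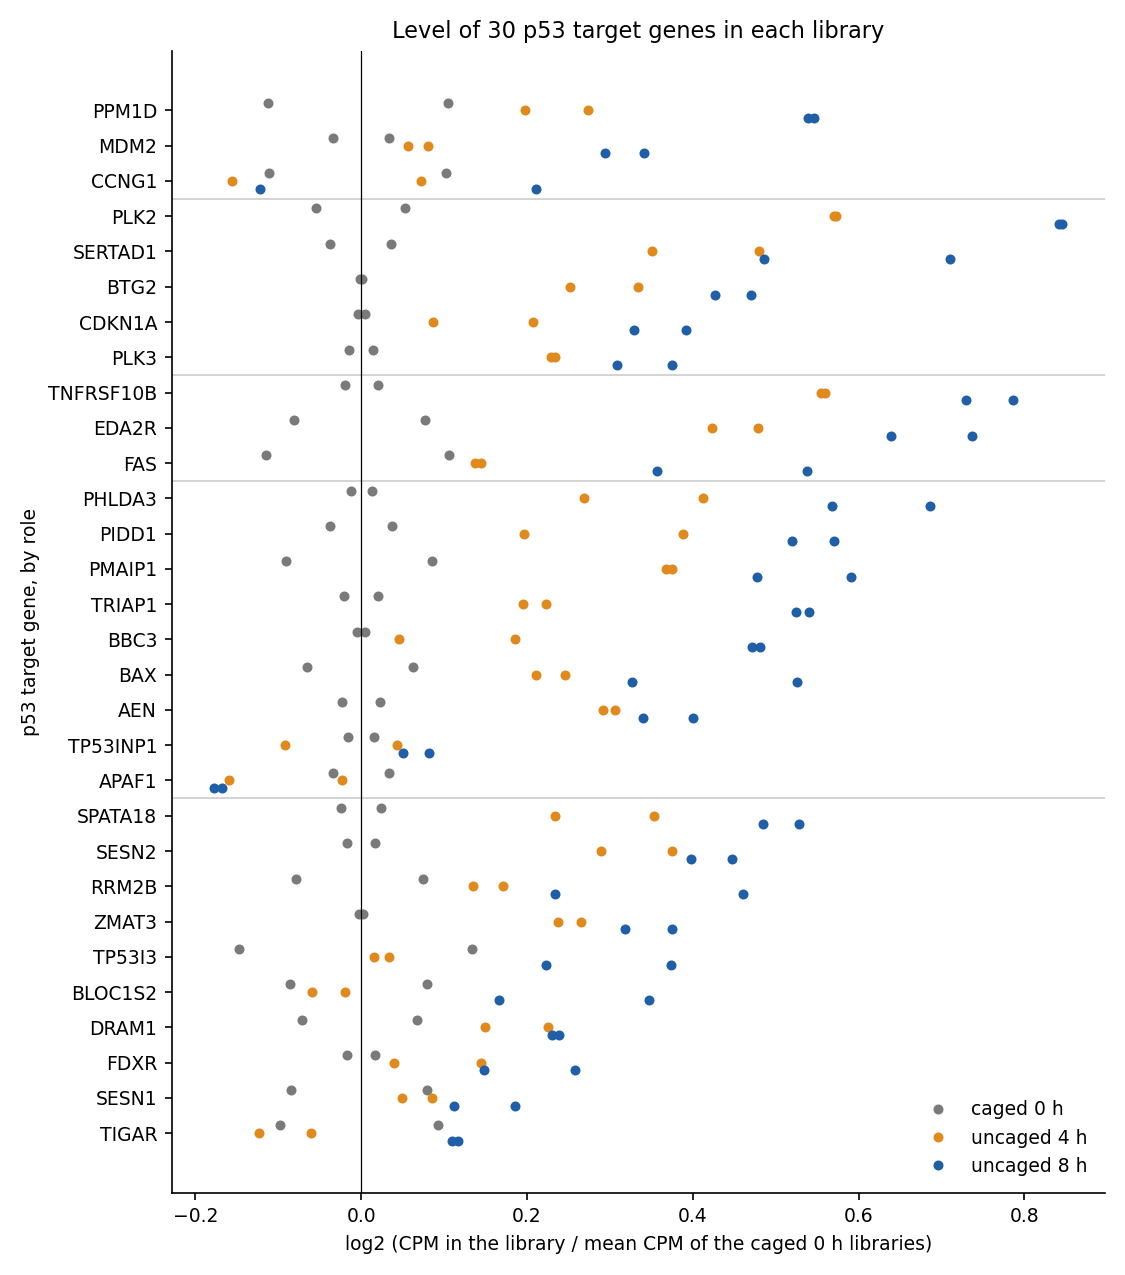
Level of the 30 tested p53 targets in each of the 6 libraries, as the log2 ratio of its CPM to the mean CPM of the caged libraries. Points are single libraries (2 a group), genes are grouped by role between the grey lines in the order feedback, cell cycle, receptors, apoptosis, and metabolism with organelles and RNA. For 28 genes both 8 h points lie to the right of both caged points.

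The promoters of these genes were searched for the decamer that p53 binds. RefSeq promoter windows (GRCh38.p14, 250 bases before to 50 after a start) were held for 26 of the 31 genes, as 39 windows. The p53 consensus decamer, which reads the same on both strands, was present without a mismatch in 5 of the 39 windows (12.8%), against 6.63% of all 35116 RefSeq windows of that length. Paired decamers, both without a mismatch and with a spacer of up to 13 bases, were present in 0 of the 39 windows. Such pairs were in 0.0285% of all windows, too rare for the 0 of 39 to decide anything. Pairs with a mismatch in either decamer were not searched for, so a paired site may be present in these windows. The 5 genes were AEN, FAS, FDXR, PLK2 and SESN1. Of these, 4 (SESN1 not) were called higher at 8 h, beside 80% of the 30 tested members, with or without a decamer. A match is a description of letters, and many known p53 sites lie outside such windows. The windows below are shown for the gene with the largest rise (PLK2), for 2 further genes called higher at 8 h (AEN and FAS) and for 1 gene without a call (SESN1). They read 5′ to 3′ along the gene's strand, and capitals mark the decamer.
PLK2 (chr5:58460037-58460336, minus strand): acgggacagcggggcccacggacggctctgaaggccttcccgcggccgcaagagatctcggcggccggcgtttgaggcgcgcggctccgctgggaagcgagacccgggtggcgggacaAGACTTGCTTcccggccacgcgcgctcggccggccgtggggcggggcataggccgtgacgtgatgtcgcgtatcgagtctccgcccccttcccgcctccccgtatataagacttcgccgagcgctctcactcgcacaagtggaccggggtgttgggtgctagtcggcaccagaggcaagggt
AEN (chr15:88621090-88621389, plus strand): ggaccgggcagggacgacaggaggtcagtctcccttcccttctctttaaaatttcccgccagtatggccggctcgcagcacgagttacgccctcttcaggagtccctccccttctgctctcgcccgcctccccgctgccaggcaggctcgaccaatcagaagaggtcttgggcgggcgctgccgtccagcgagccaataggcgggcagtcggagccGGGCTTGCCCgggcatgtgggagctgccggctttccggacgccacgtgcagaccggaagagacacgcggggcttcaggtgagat
FAS (chr10:88991181-88991480, plus strand): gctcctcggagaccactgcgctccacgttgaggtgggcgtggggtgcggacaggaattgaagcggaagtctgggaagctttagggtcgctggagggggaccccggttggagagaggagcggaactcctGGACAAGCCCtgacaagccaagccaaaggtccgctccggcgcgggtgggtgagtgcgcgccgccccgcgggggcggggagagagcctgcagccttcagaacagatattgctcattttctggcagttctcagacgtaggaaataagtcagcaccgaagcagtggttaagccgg
SESN1 (chr6:109008939-109009238, minus strand): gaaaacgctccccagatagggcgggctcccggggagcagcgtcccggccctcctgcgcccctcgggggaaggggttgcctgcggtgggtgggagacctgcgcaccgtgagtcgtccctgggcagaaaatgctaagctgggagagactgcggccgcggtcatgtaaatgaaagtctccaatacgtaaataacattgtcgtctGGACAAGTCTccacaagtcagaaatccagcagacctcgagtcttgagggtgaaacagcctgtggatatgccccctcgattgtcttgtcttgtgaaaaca
The decamer starts 132 bases before the start in PLK2, 34 in AEN, 122 in FAS and 49 in SESN1. FAS and SESN1 have more than 1 window, and the other windows of both genes hold no decamer.

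Of the 3 feedback genes, 2 were called higher at 8 h and 0 at 4 h. Beside this and the counts by role below, 80% of the tested members and 14.9% of all features were called higher at 8 h. At 4 h the shares were 46.7% and 6.16%. Each role holds few genes, and differences between roles were not tested. MDM2 (chromosome 12, 68808176 to 68850686 of GRCh38, plus strand), the ligase that marks p53 for degradation, had 608 and 638 CPM in caged cells, 648 and 659 CPM at 4 h and 764 and 789 CPM at 8 h. The groups do not overlap, and most of the difference lay between 4 h and 8 h. MDM2 stood at 0.068 ± 0.043 at 4 h (adjusted p = 0.355), or -0.0996 under cyclic loess offsets, and rose by 0.32 ± 0.043 at 8 h (adjusted p = 0.00196), a call that was lost under those offsets. PPM1D, whose phosphatase WIP1 removes activating phosphates from p53 and its kinases, had 356 and 414 CPM in caged cells, 442 and 466 CPM at 4 h and 560 and 562 CPM at 8 h. Its groups are separate as well, although the caged libraries differ by more than those at 8 h. PPM1D stood at 0.24 ± 0.069 at 4 h (adjusted p = 0.0692) and rose by 0.54 ± 0.069 at 8 h (adjusted p = 0.00158). CCNG1, which encodes cyclin G1, a partner of phosphatase PP2A, had 340 and 394 CPM in caged cells, 386 and 330 CPM at 4 h and 337 and 425 CPM at 8 h. All 3 groups overlap, and its log2 fold change at 8 h was 0.054 ± 0.12 (adjusted p = 0.762), with its sign turned in 4 alternatives.

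All 5 genes of the cell cycle were called higher at 8 h, and 4 of them already at 4 h, beside 14.9% and 6.16% of all features. PLK2, a polo-like kinase that acts in G1 and S phase (chromosome 5, 58453982 to 58460260, minus strand, with the promoter window above), had 87.6 and 94.4 CPM in caged cells, 135 and 135 CPM at 4 h and 163 and 164 CPM at 8 h. Its replicates after light were nearly equal and far from the caged level. The rise of PLK2 was 0.57 ± 0.058 at 4 h (adjusted p = 0.00208) and 0.84 ± 0.058 at 8 h (adjusted p = 0.000217), and both calls held in each of the 13 alternatives. CDKN1A, which encodes the cyclin-dependent kinase inhibitor p21 (chromosome 6, 36676460 to 36687339, plus strand), had 245 and 243 CPM in caged cells, 259 and 282 CPM at 4 h and 320 and 307 CPM at 8 h. The groups were separate with a small step at 4 h. CDKN1A stood at 0.15 ± 0.056 at 4 h (adjusted p = 0.134) and rose by 0.36 ± 0.056 at 8 h (adjusted p = 0.00318), without a call under cyclic loess offsets. Its antisense partner DINOL, a noncoding RNA, was also higher at 8 h (1.42 ± 0.14, adjusted p = 0.000629). Both had estimates that were not whole in all 6 libraries and no source used here states a strand setting. Reads may therefore be shared within the pair, and to what extent was not tested.

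BTG2, an antiproliferative partner of the CCR4-NOT deadenylase, had 215 and 215 CPM in caged cells, 256 and 271 CPM at 4 h and 289 and 298 CPM at 8 h. Its caged libraries were nearly equal, and its rise was 0.29 ± 0.051 at 4 h (adjusted p = 0.0121) and 0.45 ± 0.051 at 8 h (adjusted p = 0.00101). PLK3, another polo-like kinase of the stress response, rose by 0.23 ± 0.061 at 4 h (adjusted p = 0.0482), a call lost in 12 of the 13 alternatives, and by 0.34 ± 0.061 at 8 h. SERTAD1, which binds CDK4, had the lowest mean estimated count of the 30 genes, with 313 to 415 a library, and rose by 0.41 ± 0.10 and 0.60 ± 0.10.

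Among the receptors, the 3 tested genes were called higher at 8 h, beside 14.9% of all features. TNFRSF10B encodes a receptor for the death ligand TRAIL (chromosome 8, 23020133 to 23069179, minus strand). It had 122 and 119 CPM in caged cells, 176 and 177 CPM at 4 h and 207 and 199 CPM at 8 h. No libraries overlap between groups, and the larger part of the difference was present at 4 h. TNFRSF10B rose by 0.56 ± 0.052 at 4 h and 0.76 ± 0.052 at 8 h (adjusted p = 0.00181 and 0.000217), with both calls kept in each of the 13 alternatives. EDA2R, a receptor for the A2 form of ectodysplasin, had 56.1 and 62.6 CPM in caged cells, 79.6 and 82.7 CPM at 4 h and 98.95 and 92.5 CPM at 8 h. Its groups do not overlap either and its estimates were whole numbers in all libraries, and it rose by 0.45 ± 0.075 and 0.69 ± 0.074 (adjusted p = 0.0105 and 0.000852). FAS, the receptor of FAS ligand, had 55.0 and 64.1 CPM in caged cells, 65.5 and 65.8 CPM at 4 h and 76.3 and 86.5 CPM at 8 h. The caged libraries of FAS lie further apart than those at 4 h, and only the 8 h difference passed the test (0.45 ± 0.091, adjusted p = 0.00883, and 0.14 ± 0.092 at 4 h, adjusted p = 0.369). The call of FAS at 8 h was lost without caged replicate 1 and without 8 h replicate 2.

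**Figure D2:**
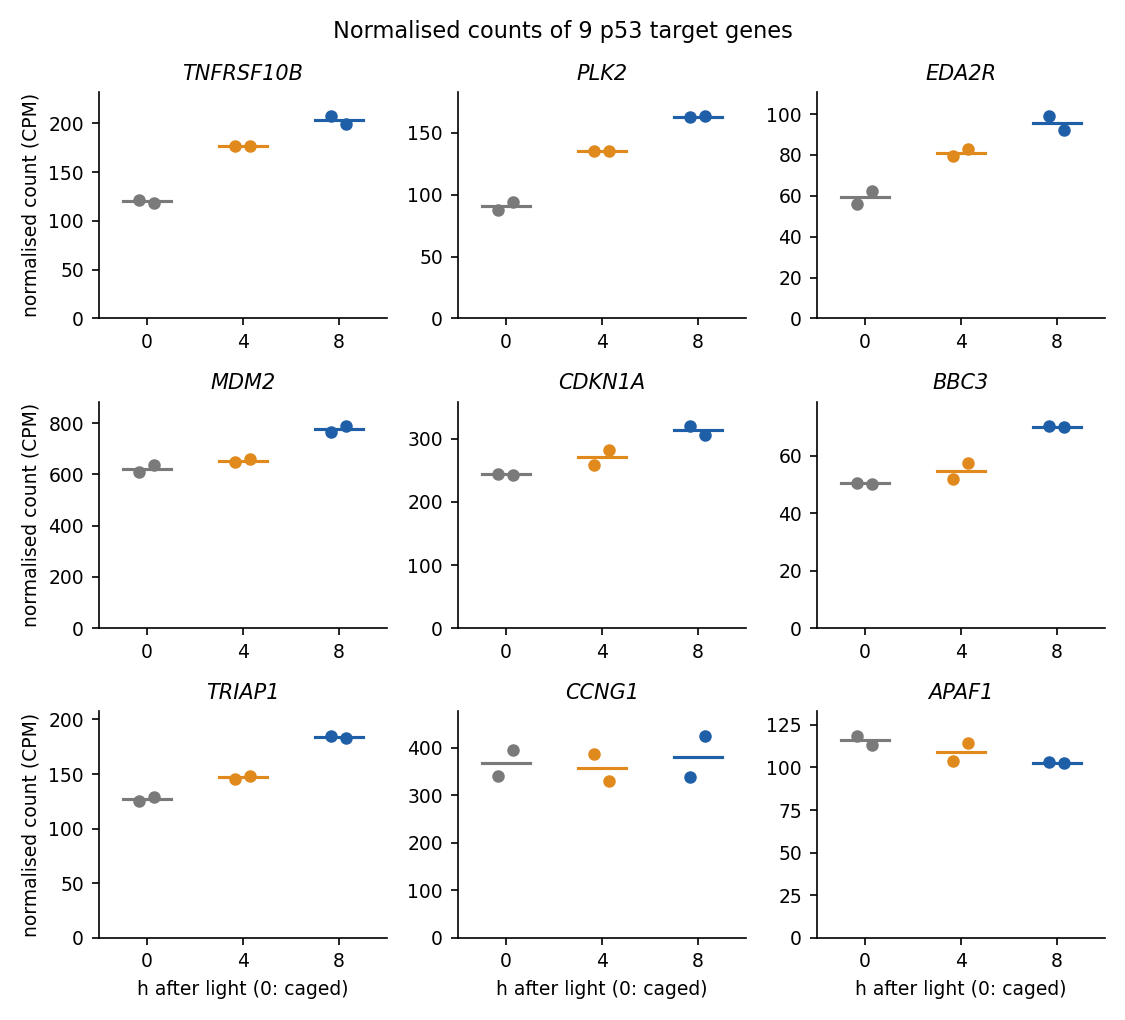
Normalised counts (CPM, linear axes from 0) of 9 p53 targets in caged cells (0) and 4 h and 8 h after light. Points are the 2 libraries of a group and bars their mean; PLK2 reached 163 and 164 CPM at 8 h, while the groups of CCNG1 overlap.

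Of the 9 genes that act in apoptosis inside the cell, 5 were called higher at 4 h and 7 at 8 h, beside 6.16% and 14.9% of all features. BBC3 encodes PUMA, a BH3-only protein that frees BAX and BAK to open the mitochondrial outer membrane. It had 50.6 and 50.2 CPM in caged cells, 52.0 and 57.3 CPM at 4 h and 70.3 and 69.9 CPM at 8 h. The larger difference lay between 4 h and 8 h, as for MDM2. BBC3 stood at 0.12 ± 0.070 at 4 h (adjusted p = 0.326) and rose by 0.48 ± 0.069 at 8 h (adjusted p = 0.00252). PMAIP1 encodes NOXA, the BH3-only protein that neutralises MCL1. It had 110 and 125 CPM in caged cells, 152 and 153 CPM at 4 h and 164 and 177 CPM at 8 h. Unlike BBC3, it was already called at 4 h (0.37 ± 0.072, adjusted p = 0.0182), and rose by 0.54 ± 0.072 at 8 h. No test compared the time courses of PMAIP1 and BBC3. BAX itself had 184 and 168 CPM in caged cells, 209 and 204 CPM at 4 h and 253 and 221 CPM at 8 h, and its rise was called at 8 h (0.43 ± 0.075, adjusted p = 0.00507) and not at 4 h (0.23 ± 0.075, adjusted p = 0.0959).

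PHLDA3, which competes with AKT for membrane lipids, had 191 and 187 CPM in caged cells, 228 and 252 CPM at 4 h and 304 and 280 CPM at 8 h. It rose by 0.34 ± 0.065 and 0.63 ± 0.065 (adjusted p = 0.0173 and 0.000755), the largest rise of the 9 at 8 h. PIDD1, the scaffold that activates caspase-2, had 191 and 181 CPM in caged cells, 213 and 243 CPM at 4 h and 276 and 266 CPM at 8 h, with rises of 0.30 ± 0.070 and 0.54 ± 0.070. PIDD1 overlaps the ribosomal protein gene RPLP2 on the opposite strand, and its estimates were not whole in any library. TRIAP1, a mitochondrial lipid-transfer partner that restrains apoptosis, had 126 and 129 CPM in caged cells, 146 and 149 CPM at 4 h and 185 and 183 CPM at 8 h. Its replicates lay close together at every time, and it rose by 0.21 ± 0.052 and 0.53 ± 0.052 (adjusted p = 0.0404 and 0.000563). The 4 h call of TRIAP1 was lost in 10 of the 13 alternatives. AEN, an apoptosis-enhancing nuclease, had 716 and 739 CPM in caged cells, 890 and 900 CPM at 4 h and 959 and 920 CPM at 8 h. Most of the rise of AEN was present at 4 h (0.30 ± 0.041, adjusted p = 0.00545, and 0.37 ± 0.041 at 8 h, adjusted p = 0.000922), although both calls were lost under cyclic loess offsets.

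The remaining pair of this group was not called. TP53INP1, a stress-induced nuclear protein, stood at 0.066 ± 0.065 at 8 h (adjusted p = 0.473). APAF1, which forms the apoptosome with cytochrome c, had 119 and 113 CPM in caged cells, 104 and 114 CPM at 4 h and 103 and 103 CPM at 8 h. APAF1 was the only tested member with a negative log2 fold change at 8 h (-0.17 ± 0.065, adjusted p = 0.0818), and it was called lower with library totals alone (-0.28, adjusted p = 0.0149) and under cyclic loess offsets (-0.27, adjusted p = 0.0225).

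Of the 10 genes of metabolism, organelles and RNA, 3 were called higher at 4 h and 7 at 8 h, beside 6.16% and 14.9% of all features. SESN2, a leucine sensor that restrains mTORC1, had 427 and 437 CPM in caged cells, 527 and 560 CPM at 4 h and 588 and 569 CPM at 8 h. It was high from 4 h on, with rises of 0.33 ± 0.047 and 0.42 ± 0.047 (adjusted p = 0.00625 and 0.000955). Its paralogue SESN1 had 190 and 213 CPM in caged cells, 214 and 208 CPM at 4 h and 229 and 217 CPM at 8 h. SESN1 was not called at either time (0.15 ± 0.065 at 8 h, adjusted p = 0.119), and the difference between the sestrin genes was not tested. SPATA18, a factor of mitochondrial quality control, had 83.6 and 86.6 CPM in caged cells, 100.1 and 109 CPM at 4 h and 123 and 119 CPM at 8 h, and rose by 0.29 ± 0.064 and 0.51 ± 0.063 (adjusted p = 0.027 and 0.00147). ZMAT3, a zinc finger protein that binds RNA and alters splicing, rose by 0.25 ± 0.051 and 0.35 ± 0.051.

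The other genes of this group were called at 8 h alone or not at all. RRM2B, the p53-inducible small subunit of ribonucleotide reductase, rose by 0.35 ± 0.082 at 8 h (adjusted p = 0.0151). TP53I3, a quinone oxidoreductase, rose by 0.30 ± 0.097 (adjusted p = 0.0495). BLOC1S2, a subunit of a complex for lysosome-related organelles, rose by 0.26 ± 0.078 (adjusted p = 0.0384). FDXR, the mitochondrial ferredoxin reductase, rose by 0.20 ± 0.059 (adjusted p = 0.0342). These 4 calls were each lost in 4 to 11 of the 13 alternatives. DRAM1, a lysosomal membrane protein of autophagy, stood at 0.24 ± 0.082 (adjusted p = 0.0635), and under cyclic loess offsets it was called (0.35, adjusted p = 0.019). TIGAR, which lowers fructose-2,6-bisphosphate, stood at 0.11 ± 0.071 (adjusted p = 0.267). The 8 h values of SESN1, TIGAR and TP53INP1 turned negative under cyclic loess offsets.

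**Figure D3:**
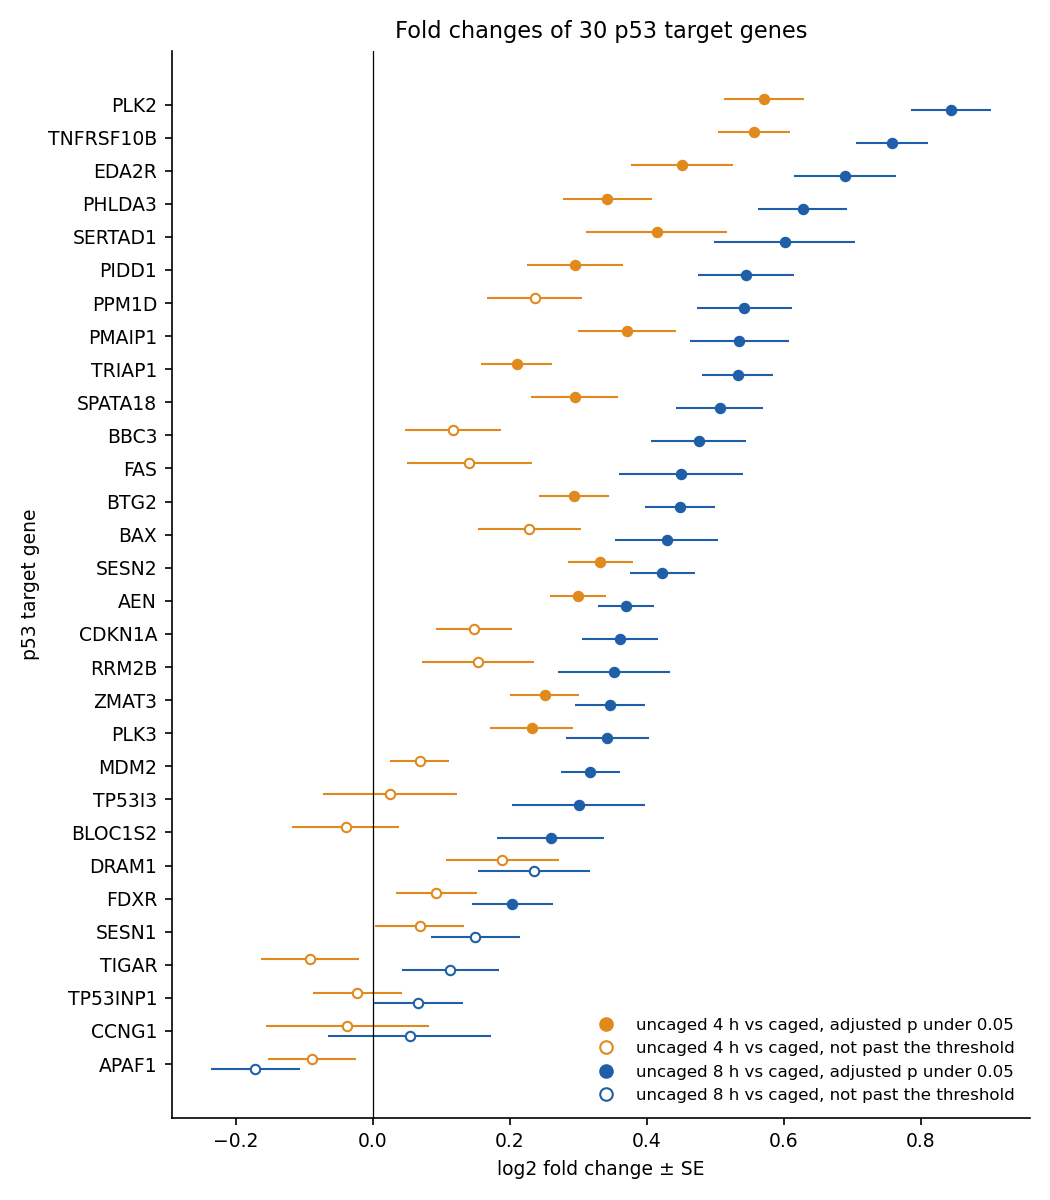
Log2 fold changes ± SE of the 30 tested p53 targets at 4 h and at 8 h against caged cells, ordered by the value at 8 h; filled points have an adjusted p under 0.05. PLK2 leads with 0.84 and APAF1 closes with -0.17 at 8 h, and both sets of values share the caged libraries.

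Between 8 h and 4 h, 4 of the 30 p53 targets passed the test, all higher at 8 h. The log2 fold change of 8 h against 4 h was above 0 for 29 of the 30 genes, where 49.4% of all features were above 0, with a median of 0.20 beside -0.0034 over all features. Both 8 h libraries were above both 4 h libraries for 28 genes and below for 1, beside 26.1% and 27.2% of all features. The test called 4 genes higher and 0 lower, against 2.05% and 1.21% of all features. At an unadjusted p under 0.05 they were 19 and 0, beside 2059 and 1973 of all 17449 tested features. DESeq2 called 10 and 0, beside 492 and 156 of all 60179 gene features without the filter. The 4 genes called by edgeR were BBC3 (0.36 ± 0.069, adjusted p = 0.038), TRIAP1 (0.32 ± 0.052, adjusted p = 0.0261), PLK2 (0.27 ± 0.057, adjusted p = 0.0451) and MDM2 (0.25 ± 0.043, adjusted p = 0.0304). All 4 calls were lost without any one of the 4 h or 8 h libraries. AEN (0.070 ± 0.041) and SESN2 (0.090 ± 0.047) were among those with small values, and both turned slightly negative under cyclic loess offsets.

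The counts at 4 h rest on few libraries. Counts called higher over all features fell as well with any library left out, as given in the closing section, so the loss is not particular to the members. Without 4 h replicate 2 the number called higher was 2 in place of 14, without caged replicate 1 it was 4, and without caged replicate 2 or without 4 h replicate 1 it was 7. TNFRSF10B and PLK2 were the 2 genes called in all 13 alternatives at 4 h. The other 12 calls at 4 h were lost in 2 alternatives (AEN and SESN2), 3 (EDA2R), 4 (BTG2 and PMAIP1), 5 (PHLDA3), 6 (SPATA18 and ZMAT3), 8 (PIDD1 and SERTAD1), 10 (TRIAP1) or 12 (PLK3). At 8 h the number stayed between 18 and 24 over the alternatives, and 16 of the 24 genes kept their call in all 13. Cyclic loess offsets, which remove any trend of fold change with abundance, gave 5 genes at 4 h and 18 at 8 h, with medians of 0.12 and 0.26. Of all features, 4.16% and 12.1% were then called higher.

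**Figure D4:**
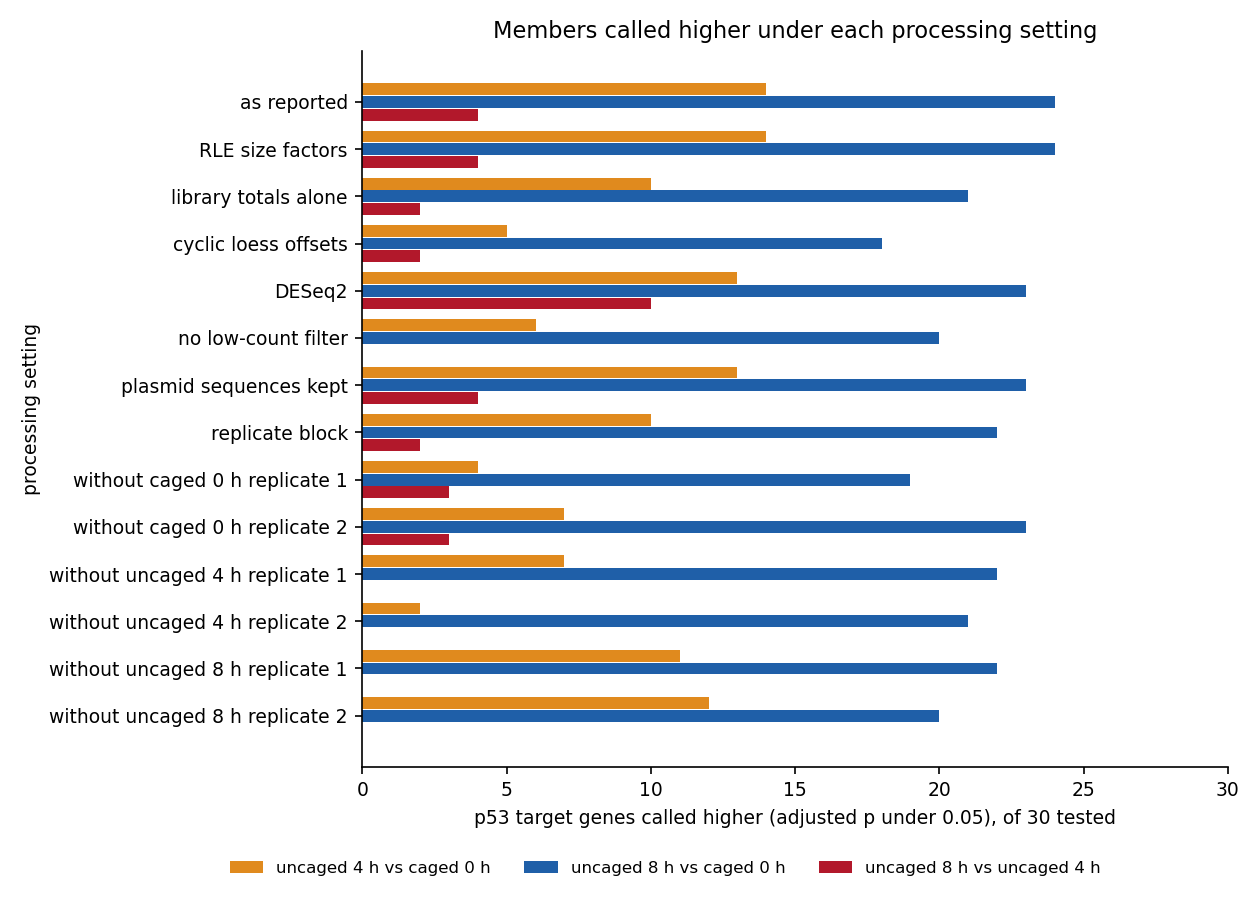
Number of the 30 tested p53 targets called higher (adjusted p under 0.05) as reported and under each of the 13 processing alternatives, for the 3 comparisons. The counts at 8 h against caged cells stay between 18 and 24, whereas those at 4 h fall to 2 without 4 h replicate 2.

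Among the regulators of p53, MDM4, the MDM2 relative that masks the activation domain of p53, had 148 and 128 CPM in caged cells, 144 and 162 CPM at 4 h and 203 and 196 CPM at 8 h, and rose by 0.53 ± 0.083 at 8 h (adjusted p = 0.00334). Of 48 listed symbols of regulators, 46 were tested, of which 9 were called higher and 1 lower at 4 h and 15 higher and 5 lower at 8 h. As shares of the list, 19.6% were higher and 2.17% lower at 4 h, against 6.16% and 3.56% of all features, and 32.6% were higher and 10.9% lower at 8 h, against 14.9% and 13.2%. Their median was 0.036 at 4 h and 0.081 at 8 h. The p53 acetyltransferase genes EP300 (0.78 ± 0.071) and CREBBP (0.68 ± 0.071) and the deacetylase gene SIRT1 (0.65 ± 0.068) were called higher at 8 h, and the deubiquitinase gene USP2 lower (-0.70 ± 0.079).

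A longer list held 111 symbols of further p53 targets. Of its 104 tested genes, 17 were called higher and 9 lower at 4 h, and 38 higher and 15 lower at 8 h. These are 16.3% higher and 8.65% lower at 4 h, and 36.5% higher and 14.4% lower at 8 h, where all features had 6.16% and 3.56%, and 14.9% and 13.2%. The median was 0.032 at 4 h and 0.13 at 8 h. Called higher at 4 h with the smallest p were LIF, a cytokine gene (1.08 ± 0.088), TNFRSF10D, a decoy receptor for TRAIL (1.01 ± 0.097), MIR34AHG, the host transcript of the microRNA miR-34a (1.52 ± 0.16), and the phosphatase gene PTPN14 (0.67 ± 0.076). Between 4 h and 8 h, GADD45A, a stress sensor of DNA damage, rose by 0.42 ± 0.062 (adjusted p = 0.025) and IKBIP by 0.73 ± 0.090 (adjusted p = 0.0172). Whether the 30 genes and this list differ was not tested.

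**Figure D5:**
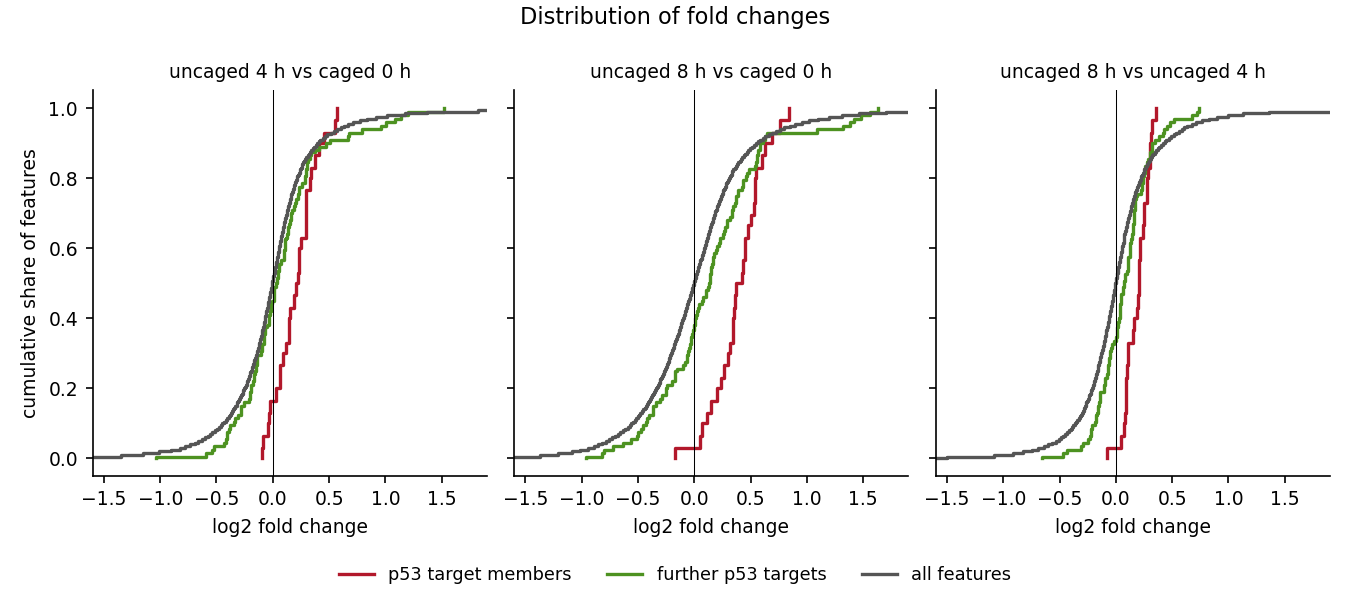
Cumulative distributions of log2 fold changes in the 3 comparisons for the 30 tested p53 targets, the 104 further targets and all 17449 tested features; values beyond the axis are not drawn. The curve of the 30 targets crosses the middle of the vertical axis at 0.22, 0.40 and 0.20.

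Genes that p53 is known to lower through p21 and the DREAM complex were examined as a further list. Large T also binds the pocket proteins of that complex. Of 40 tested genes, 4 were called higher and 2 lower at 4 h, and 14 higher and 2 lower at 8 h. At 4 h the shares of 10% higher and 5% lower were near those of all features (6.16% and 3.56%), and at 8 h 35% were higher and 5% lower, against 14.9% and 13.2%. The list had medians of 0.045 and 0.15. The replication licensing gene CDC6 (0.39 ± 0.049), the helicase subunit gene MCM5 (0.38 ± 0.048), the survivin gene BIRC5 (0.35 ± 0.046) and the spindle midzone gene PRC1 (0.48 ± 0.067) were higher at 8 h. Among 12 tested BCL2 family genes outside the members, 0 were called at 4 h (2 higher and 1 lower at an unadjusted p under 0.05), and at 8 h BMF alone was called, lower (-1.18 ± 0.17, adjusted p = 0.00265). That is 8.33% of the list, against 13.2% of all features called lower at 8 h, and counts this small in 12 genes show nothing about the family.

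Reads shared with other features touch part of these values. Of the 31 genes, 17 had an estimate that was not whole within 0.01 in at least 1 library, and 16 overlap a gene on the opposite strand in GENCODE 29. Of the 24 genes called at 8 h, 11 had whole estimates in all 6 libraries: BBC3, PMAIP1, AEN, TRIAP1, SESN2, FDXR, RRM2B, PLK2, BTG2, SPATA18 and EDA2R. For the other 13, MDM2, CDKN1A, TNFRSF10B and FAS among them, the part of shared reads in the result was not tested.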

How the data were processed

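Messenger RNA of 6 HEK293T libraries was measured, 2 in each of the 3 groups caged 0 h, uncaged 4 h and uncaged 8 h, as titles give them. The authors made the deposited estimated counts per gene with Salmon 1.1.0, per the submitters' processing notes, and left them without normalisation, as the values show. The notes also name the build GRCh38, DESeq2 and R 3.6.1. No source used here gives the transcript annotation or the strand setting. Symbols were matched by identifier without its version, and loci come from GENCODE 29 (GRCh38).

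The 5 plasmid features (11.5% to 15.5% of a library) were left out. Counts were rounded, filtered with filterByExpr (minimum count 10, minimum total 15), and TMM-scaled, and edgeR 4.0.16 (R 4.3.3) was used for the fit (glmQLFit with legacy=TRUE, all 6 libraries, no covariates). CPM use the TMM library sizes. The SE is the log2 fold change divided by the square root of F. A count of 0 allows up to 3 counts, or 0.164 to 0.21 CPM; this covers counting error only. The common biological coefficient of variation was 6.34%.

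All 31 members are named by rule, with MDM4 and at most 4 called genes of smallest p from each other list, of which a part is printed; 1 further gene that the rule names is not reported here. The members and lists were chosen with earlier results of these data known. Alternatives were RLE factors, library totals, cyclic loess offsets, DESeq2 1.42.0, no filter, plasmids kept, a replicate block and each library left out; where 1 library remained in a group, its spread was taken to equal that of the other groups.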

Additional observations from a re-analysis of the deposited data

Results flagged for a closer look

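The response of 4 p53 targets differed between the 2 times after light, by the direct test of 8 h against 4 h with edgeR's quasi-likelihood test. The log2 difference was 0.36 for BBC3, 0.32 for TRIAP1, 0.27 for PLK2 and 0.25 for MDM2. Both 8 h libraries were above both 4 h libraries for each, as for 28 of the 30 tested members and 26.1% of all features. The test on these same libraries picked the 4 genes, so the separation adds no support. The adjusted p ran from 0.0261 to 0.0451. Without any one of the 4 libraries compared none of the 4 passed, and without a filter on low counts none passed either.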

How the results depend on the processing

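No call of a p53 target was reversed under any of the 13 alternatives; 26 of the 1170 values for the tested members changed sign, all without a call in either fit. Members called higher at 4 h numbered 14 as reported, 5 under cyclic loess offsets, 6 without a filter and 2 to 12 with a library left out. At 8 h they numbered 24 as reported and 19 to 23 with a library left out, and 1 member (APAF1) was called lower with library totals alone and 1 (the same gene) under cyclic loess offsets. Between 8 h and 4 h they numbered 4 as reported, 10 by DESeq2, 2 with library totals alone, 2 under cyclic loess offsets, 2 with the replicate block, 0 without a filter and 0 to 3 with a library left out.

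Counts over all features moved as follows. At 4 h, 1074 were higher, with 447 without a filter, 709 with the replicate block and 165 to 943 with a library left out. The 622 lower became 264 without a filter, 330 with the replicate block, 260 by DESeq2 and 61 to 672 with a library left out. At 8 h, the 2602 higher became 1595 with library totals alone, 1597 without a filter and 1373 to 2246 with a library left out. The 2305 lower became 3899 with library totals alone, 1110 by DESeq2 and 902 to 2082 with a library left out. Between 8 h and 4 h, the 358 higher became 48 without a filter, 151 with the replicate block and 6 to 197 with a library left out. The 212 lower became 447 with library totals alone, 5 without a filter, 42 with the replicate block and 0 to 77 with a library left out. The cause of these shifts was not tested. Library totals alone moved the median of all features at 8 h to -0.109 and the share of calls that were higher to 44.7% from 63.3% at 4 h, 29% from 53% at 8 h and 35.4% from 62.8% between them. The members' medians were then 0.17, 0.29 and 0.15.

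Same-numbered replicates did not deviate together (correlations of 0.00081, 0.0474 and -0.05 between the 3 pairs of groups over 17449 features). Correlations this small cannot exclude a shared culture or batch, and the labels do not say that the numbers mark one. With the replicate block 10 members were called higher at 4 h and 22 at 8 h, beside 4.06% and 13.6% of all features. A group of 2 libraries limits the precision of every value.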
